A study of Mus musculus with 9 samples.

Results

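TNF, its receptors, the adaptors that bind them and a set of NF-kB target genes were measured by RNA-seq in bone marrow (BM) endothelial cells (ECs) of normal wild type B6 mice. The 10 genes Tnf, Tnfrsf1a, Tnfrsf1b, Traf1, Traf2, Tnfaip3, Nfkbia, Birc3, Relb and Nfkb2 were taken by gene name from a table of read counts for 46078 genes, and all 10 passed the filter on low counts that left 15937 genes for testing. CD45-Ter119-CD31+ cells had been sorted into a Sca-1+ fraction (4 libraries, whose labels end in 7, 13, 15 and 19) and a Sca-1- fraction (5 libraries, ending in 8, 10, 14, 16 and 22). In BM, Sca-1, encoded by Ly6a, is high on ECs of arteries and arterioles and low on ECs of sinusoids, and the study asked how TNF acts on these vessels in leukemia. The labels name neither leukemia nor TNF treatment, and that the mice were normal is taken from the study's text. Age and sex were not stated in the labels. The labels of libraries 8, 15, 16 and 19 say wt, and those of 10, 13, 14 and 22 carry another mark in its place. In 13, 14 and 22 this mark reads as a CD45 allele, and in 10 it has the same digits without the letters CD. The study's text also names B6 mice by such alleles, but the labels do not explain the mark. The label of 7 carries neither wt nor this mark. The numbers that open the labels lie in separate ranges for the Sca-1+ and Sca-1- libraries, so fraction and library series cannot be told apart. Sca-1+ library 15 and Sca-1- library 16 carry the same mouse number, and the labels do not say whether the libraries of a fraction came from separate mice, so the p-values measure the spread between libraries only.

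TNF is a cytokine that is made as a membrane protein and released by the protease ADAM17. It binds TNFR1 (Tnfrsf1a), found on most cells and carrying a death domain, and TNFR2 (Tnfrsf1b), found mainly on leukocytes and ECs. The adaptor TRAF2 (Traf2) and the ubiquitin ligases cIAP1 (Birc2) and cIAP2 (Birc3) join the receptor complex, and the kinases that follow release NF-kB from its inhibitor IkB-alpha (Nfkbia). NF-kB then switches on its own brakes, Nfkbia and A20 (Tnfaip3), together with survival genes such as Birc3 and Traf1. In the slower, non-canonical branch the kinase NIK (Map3k14) leads to dimers of RelB (Relb) and p52 (made from Nfkb2). In ECs the pathway is known for adhesion molecules and chemokines that recruit leukocytes.

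Counts per library lay between 21581653 and 25959818, and a level of 3 counts corresponded to 0.0996 to 0.209 CPM (counts normalised for depth by edgeR's TMM method), a limit that covers counting error only because reads were not tagged by molecule. Ly6a fitted the labels, at 1133 ± 187 CPM (SD, n = 4) in Sca-1+ and 0.678 ± 0.524 CPM (SD, n = 5) in Sca-1- libraries. The Sca-1- libraries stood apart from their label in other ways. The EC cadherin gene Cdh5 was at 264 ± 27.2 CPM in Sca-1+ and 7.14 ± 3.92 CPM in Sca-1- libraries, and 16 of 18 endothelial marker genes were higher in Sca-1+, with a median log2 fold change of 4.36. Pecam1, which encodes the sort marker CD31 and is also expressed by megakaryocytes, did not pass the test (0.74, adjusted p = 0.247). The platelet integrin gene Itga2b was at 10.8 ± 0.783 CPM in Sca-1+ and 12391 ± 7938 CPM in Sca-1- libraries. All 15 megakaryocyte markers in the table were higher in Sca-1-, where their summed level was 26600 to 115300 CPM against 45.2 to 94.4 CPM in Sca-1+. Of 12 general leukocyte markers 10 were higher in Sca-1- (summed 2317 to 4548 against 142 to 214 CPM). The fractions are therefore called by their labels, Sca-1+ and Sca-1-, below. In such sorted bulk samples, fewer cells of a type and less RNA per cell cannot be told apart.

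Of the 10 genes, 8 were higher in the Sca-1+ libraries, 0 were lower and 2 (Tnf and Tnfaip3) did not pass the test, by edgeR's quasi-likelihood test with Benjamini-Hochberg adjustment over all genes, while under a scaling that equalizes the 18 endothelial markers between libraries all 10 had a lower level in Sca-1+, 6 of them past the test. Among all genes tested, 23.3% were called higher and 21.4% lower with TMM. Under the endothelial scaling, 226 of all 15937 genes were called higher and 14076 lower, the base for each count under that scaling below. The same 8 genes had every Sca-1+ library above every Sca-1- library, as had 24.8% of all genes. The median log2 fold change of the 10 genes was 2.59, beside 0.07 for all genes tested and 4.36 for the endothelial markers. The summed level of the 10 genes was 2310 to 3415 CPM in Sca-1+ and 295 to 384 CPM in Sca-1- libraries, and Nfkbia made up most of the sum in the Sca-1+ libraries.

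**Figure D1:**
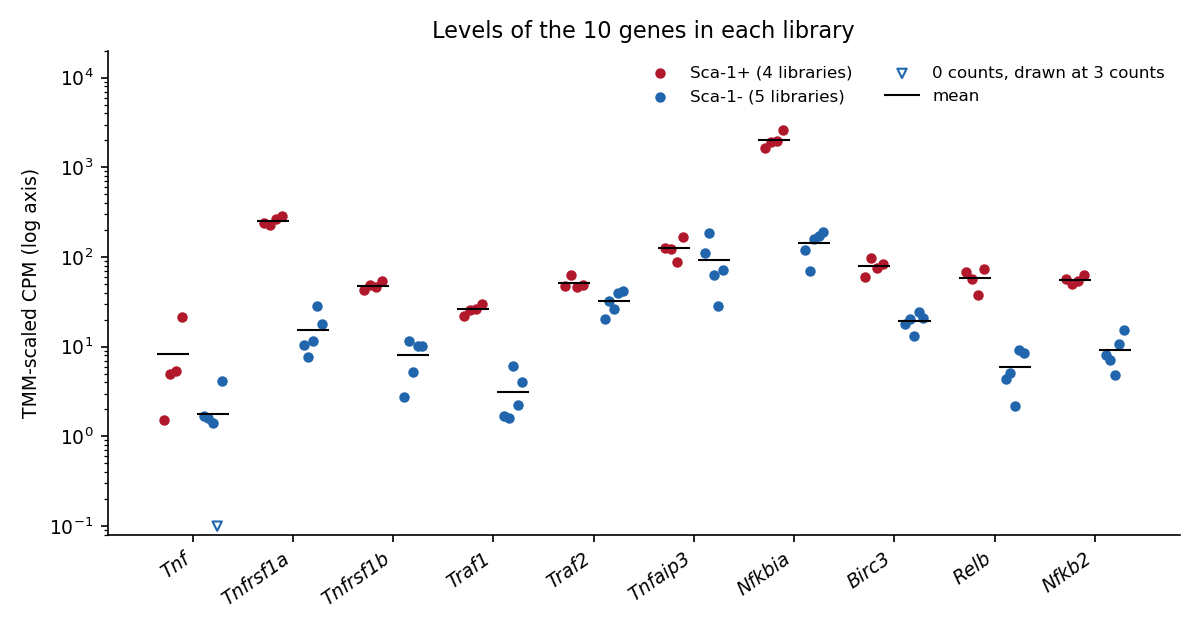
TMM-scaled CPM (log axis) of the 10 genes in each of 4 Sca-1+ (red) and 5 Sca-1- (blue) libraries, with lines at the means of the fractions and an open triangle, drawn at 3 counts, for the library with 0 counts of Tnf. The red and blue points overlap for Tnf and Tnfaip3 and are separate for the other 8 genes, with Nfkbia the most abundant at 1647 to 2587 CPM in Sca-1+.

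Promoter sequences were examined because genes such as Nfkbia, Tnfaip3, Nfkb2, Birc3 and Traf1 are known NF-kB targets, and the positions of the kB motif show where in each gene the letters lie. RefSeq promoters (GRCm38.p6, 250 bases before to 50 after the start) were at hand for 9 of the 10 genes, in 12 windows. The letters of the NF-kB consensus were searched on both strands, as was the overlapping motif GGANTTTCC, which was chosen after the sequences had been seen. Nfkbia, Tnfaip3 and Nfkb2 held both motifs, and Tnf, Tnfrsf1a, Tnfrsf1b, Traf1, Traf2 and Birc3 held neither in these windows. Among all 32851 promoters, 8.46% held the consensus and 1.25% held GGANTTTCC. Counted by gene, the shares were 9.55% and 1.45% of 27025 genes with a promoter. The longer stretches lie outside annotated untranslated exons, and 3 short Nfkb2 sites lie inside them. All are printed on the strand of the gene, 5′ to 3′, with matches to either motif in capitals, and positions are counted from the start of transcription.

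The Nfkbia stretch (chr12:55492648-55492897, minus strand, positions -250 to -1) has GGANTTTCC at -178 to -170 and, at -29 to -20, a consensus match on the opposite strand that holds the second GGANTTTCC.
Nfkbia: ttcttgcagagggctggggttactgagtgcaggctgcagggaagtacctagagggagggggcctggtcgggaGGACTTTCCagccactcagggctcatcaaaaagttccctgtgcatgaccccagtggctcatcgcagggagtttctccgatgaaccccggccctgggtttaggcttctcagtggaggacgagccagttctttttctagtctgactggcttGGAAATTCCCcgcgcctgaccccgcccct

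The Tnfaip3 stretch (chr10:19015411-19015547, minus strand, positions -137 to -1) has consensus matches at -125 to -116 and -12 to -3, and GGANTTTCC at -24 to -16. A further Tnfaip3 promoter of the reference held no match.
Tnfaip3: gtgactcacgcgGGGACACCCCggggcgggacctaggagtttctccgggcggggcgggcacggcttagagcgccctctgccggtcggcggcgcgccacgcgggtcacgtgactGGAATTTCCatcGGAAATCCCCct

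Nfkb2 has 3 promoters in the reference. The upstream stretch of the second (chr19:46305445-46305694, plus strand) holds 1 consensus match, at -236 to -227, and a further match lies in the first exon at 11 to 20 (shown with 5 bases on either side, chr19:46305700-46305719). In the first promoter, 3 overlapping or adjacent consensus positions lie in 2 short stretches, at -39 to -29 and -11 to -2. GENCODE places both in untranslated exon sequence, and the transcript this belongs to was not looked up.
Nfkb2 second promoter: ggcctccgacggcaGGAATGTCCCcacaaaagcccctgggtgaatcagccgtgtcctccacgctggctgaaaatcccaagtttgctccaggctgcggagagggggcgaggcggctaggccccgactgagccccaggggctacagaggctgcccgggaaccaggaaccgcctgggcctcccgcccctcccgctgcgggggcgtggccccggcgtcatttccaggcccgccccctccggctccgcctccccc
Nfkb2 second promoter, exon site: ttttcGGGACTTTCCtaagc
Nfkb2 first promoter, -39 to -29: GGGAATTCCCC
Nfkb2 first promoter, -11 to -2: GGGGCTTTCC

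A match is a description of letters and does not show that a factor binds there. Of these 3 genes, Nfkbia and Nfkb2 were higher in Sca-1+ libraries and Tnfaip3 did not pass the test. Tnfrsf1a, Tnfrsf1b, Traf1, Traf2 and Birc3 were higher with no match in their windows. Among 20 other genes known to be induced by TNF in ECs, 18 had a promoter in the reference, and 10 of these (55.6%) held the consensus, beside 9.55% of all genes with a promoter and 2 of 11 endothelial markers (18.2%).

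Tnf itself (17:35199381-35202007, minus strand; GRCm38 with GENCODE M21 for all genes here) was the least securely measured of the 10. Its counts in Sca-1+ libraries 7, 13, 15 and 19 were 45, 146, 154 and 548, and in Sca-1- libraries 8, 10, 14, 16 and 22 they were 28, 23, 33, 0 and 103. On the TMM scale these were 1.53, 4.97, 5.32 and 21.2 CPM in Sca-1+ and 1.68, 1.61, 1.40, 0 and 4.19 CPM in Sca-1-. The fractions overlapped, since Sca-1+ library 7 lay below Sca-1- libraries 8, 10 and 22. The log2 fold change was 2.21 (SE 1.06), with an adjusted p of 0.115. Without Sca-1+ library 19 it was 1.15 (adjusted p = 0.435). That library also held more neutrophil RNA than the other Sca-1+ libraries, with S100a8 at 167 CPM against 1.60 to 1.94 CPM and a summed level of the neutrophil markers of 772 CPM, the highest of all 9 libraries. Sca-1- library 14 had a neutrophil sum of 757 CPM with Tnf at 1.40 CPM, but the sum came from other genes. There Mpo (598 CPM) and Elane (124 CPM) made up most of it, with S100a8 at 7.04 CPM. In library 19 Mpo was at 0.774 CPM and Elane at 0.813 CPM, so these sums do not compare like with like. Library 19 was also the highest for the summed immediate-early genes (36070 CPM) and smooth muscle and pericyte markers (1582 CPM). The part of neutrophils or of any other source in the Tnf value was not tested. In Sca-1- library 16, where Tnf had 0 counts, the summed level of the 12 general leukocyte markers was 3837 CPM, within the range of the other Sca-1- libraries (2317 to 4548 CPM). The single markers were less even. For Ptprc, Cd52, Cd53, Lcp1, Rac2 and Tyrobp, no other Sca-1- library reached the level of library 16 (Tyrobp 444 CPM, others 9.04 to 98.5 CPM). Laptm5, Lcp2 and Vav1 went the other way, with library 16 below every other Sca-1- library. Coro1a, Was and Itgb2 lay within the range of the others.

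The genes that release TNF were tested beside it. Of 6 genes of this list, 5 were tested, of which 2 were higher, 2 were lower and 1 did not pass, while under the endothelial scaling all 5 were lower and passed. Timp3, an inhibitor of ADAM17, rose by 1.11 (SE 0.29) on the log2 scale in Sca-1+, and Adam17 itself rose by 0.78 (SE 0.23, adjusted p = 0.018) with overlapping fractions, although under the endothelial scaling these read -3.24 and -3.67. Rhbdf2, which encodes iRhom2, the partner that carries ADAM17 to the cell surface, fell by 2.98 (SE 0.70), from 126 ± 120 CPM in Sca-1- to 16.1 ± 3.49 CPM in Sca-1+. Frmd8, which stabilizes that complex, fell by 1.11 (SE 0.33). The Adam17 call was lost in 3 of 9 fits that left out 1 library (0.57 to 0.90), those without Sca-1+ library 15 or 19 or Sca-1- library 14, and the Frmd8 call in 2 of 9 (-1.35 to -0.89), those without Sca-1+ library 13 or 19. Rhbdf2 was highest in Sca-1- libraries 10 (301 CPM) and 8 (204 CPM), the libraries with the most Itga2b (23280 and 18340 CPM), and the part of megakaryocyte RNA in this difference was not tested. Lymphotoxin alpha (Lta), which binds the same receptors as TNF, was too low to test, at 0.122 CPM on average in Sca-1+ and 0.182 CPM in Sca-1-.

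The gene of TNFR1, Tnfrsf1a (6:125349362-125362484, plus strand), had 7015, 6752, 7608 and 7373 counts in Sca-1+ libraries 7, 13, 15 and 19, and 176, 110, 274, 859 and 442 counts in Sca-1- libraries 8, 10, 14, 16 and 22. Its level was 254 ± 24.9 CPM (SD, n = 4) in Sca-1+ and 15.3 ± 8.31 CPM (SD, n = 5) in Sca-1-. All Sca-1+ libraries lay above all Sca-1- libraries. The log2 fold change was 4.05 (SE 0.38, adjusted p = 4.2e-05), the largest of the 10 genes, and it was near 0 at -0.13 (adjusted p = 0.689) when the endothelial markers were equalized.

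TNFR2, by contrast, was measured at a smaller difference. Tnfrsf1b (4:145213463-145246870, minus strand) had 1256, 1437, 1331 and 1401 counts in Sca-1+ libraries 7, 13, 15 and 19, and 46, 167, 124, 308 and 251 counts in Sca-1- libraries 8, 10, 14, 16 and 22. The level was 48.0 ± 4.86 CPM in Sca-1+ and 8.03 ± 3.81 CPM in Sca-1-, a log2 fold change of 2.58 (SE 0.39, adjusted p = 4.8e-04), and the fractions did not overlap. Under the endothelial scaling it was lower in Sca-1+, at -1.86 (adjusted p = 0.0081).

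The balance of the receptors was compared within each library, where no scaling enters. Reads of Tnfrsf1b per read of Tnfrsf1a were 0.179, 0.213, 0.175 and 0.19 in Sca-1+ libraries 7, 13, 15 and 19, and 0.264, 1.52, 0.454, 0.359 and 0.568 in Sca-1- libraries 8, 10, 14, 16 and 22. Tnfrsf1a thus took the larger part of receptor reads in 8 of 9 libraries, and Sca-1- library 10 was the exception. These reads were not divided by length, and the exons of Tnfrsf1b are longer (3.818 against 2.591 kilobases). Per kilobase of exon, library 10 had nearly equal levels, 3.05 CPM of Tnfrsf1b and 2.96 CPM of Tnfrsf1a. The mean log2 ratio was -2.41 ± 0.13 in Sca-1+ and -0.95 ± 0.96 in Sca-1-, a difference of -1.45 (exact permutation test over all 126 splits into 4 and 5, two-sided, p = 0.016, and 0.016 after adjustment over 5 ratios, where the smallest p the design allows is 0.0079). The adjusted p rose to 0.054 when any 1 Sca-1+ library was left out, with differences between -1.51 and -1.42. Without Sca-1- library 10 the difference was -1.07.

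Among the adaptors, Traf1 differed more than Traf2. Traf1 (2:34941750-34961772, minus strand), an NF-kB-induced adaptor that joins TRAF2, had 652, 757, 764 and 765 counts in Sca-1+ libraries 7, 13, 15 and 19, and 28, 23, 144, 67 and 100 in Sca-1- libraries 8, 10, 14, 16 and 22. Its level was 26.0 ± 3.03 CPM in Sca-1+ and 3.14 ± 1.94 CPM in Sca-1- (log2 fold change 3.04, SE 0.43, adjusted p = 3.4e-04), with no overlap.

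Traf2 (2:25517982-25546940, minus strand), the adaptor that brings the ubiquitin ligases to the receptors, had 1378, 1841, 1331 and 1265 counts in Sca-1+ and 335, 466, 628, 1196 and 1017 counts in Sca-1- libraries, in the same order. The level was 51.2 ± 7.80 CPM and 32.1 ± 8.92 CPM, the smallest difference among the 8 genes called, at 0.67 (SE 0.24, adjusted p = 0.045). All Sca-1+ libraries lay above all Sca-1- libraries on the TMM scale, although the call was lost in 7 of 9 fits that left out 1 library (0.46 to 0.77) and with scaling by library size only (0.997, adjusted p = 0.059). The fits without Sca-1+ library 7, 13, 15 or 19 or without Sca-1- library 8, 10 or 14 were those that lost it.

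Reads of Traf1 per read of Traf2 were 0.411 to 0.605 in Sca-1+ and 0.0504 to 0.23 in Sca-1- libraries. The mean log2 ratio was -0.97 ± 0.26 against -3.50 ± 0.87, a difference of 2.52 (exact permutation test, p = 0.016, adjusted 0.016), and it stayed past the threshold in all 9 fits that left out 1 library.

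**Figure D2:**
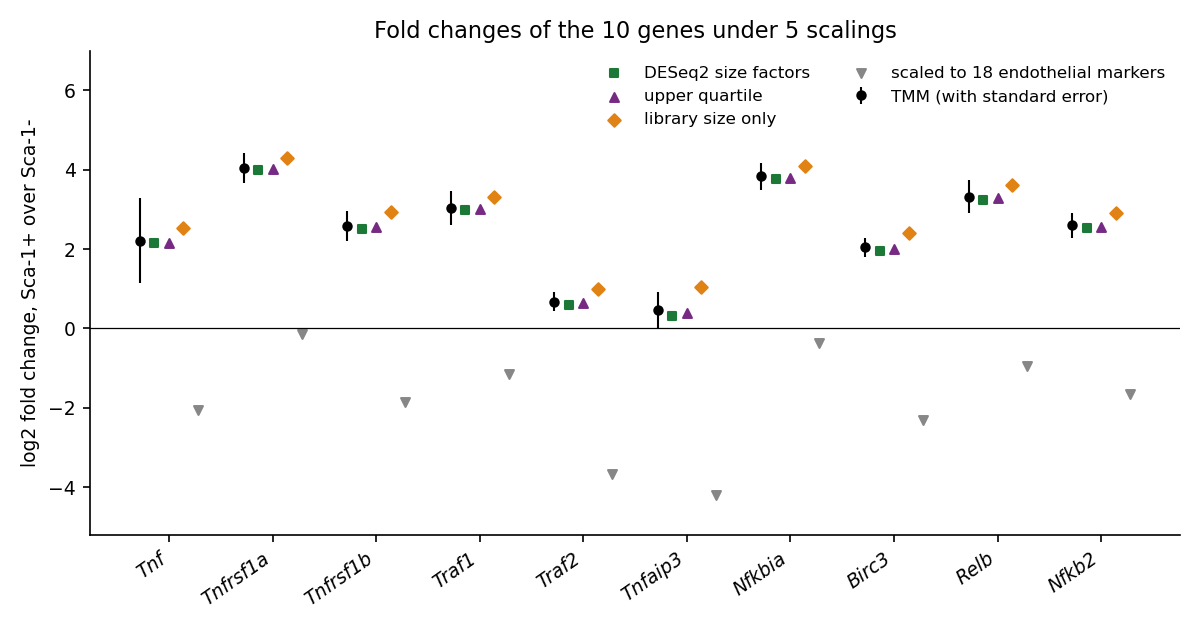
Log2 fold change of Sca-1+ over Sca-1- for the 10 genes with TMM scaling (black, bars are standard errors) and 4 other scalings of the libraries. The first 4 scalings place all 10 genes above 0, from 0.46 for Tnfaip3 to 4.05 for Tnfrsf1a with TMM, and the scaling to 18 endothelial markers places all 10 below 0, from -4.19 for Tnfaip3 to -0.13 for Tnfrsf1a.

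Birc3 and Birc2 are paralogs that lie next to each other on chromosome 9, separated by 11634 bases and transcribed in the same direction, and with TMM Birc3 was higher and Birc2 lower in Sca-1+, while the endothelial scaling placed both lower (-2.31 and -9.47). Birc3 (9:7848699-7873186, minus strand), encoding cIAP2, had 1736, 2882, 2213 and 2186 counts in Sca-1+ libraries 7, 13, 15 and 19, and 295, 289, 313, 732 and 514 in Sca-1- libraries 8, 10, 14, 16 and 22. It was at 79.6 ± 16.3 CPM in Sca-1+ and 19.3 ± 4.10 CPM in Sca-1- libraries, with no overlap (log2 fold change 2.04, SE 0.23, adjusted p = 1.1e-04).

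Birc2 (9:7818227-7837064), encoding cIAP1, had 1236, 2090, 1754 and 1724 counts in Sca-1+ and 36095, 54005, 25522, 13336 and 13988 counts in Sca-1- libraries. It was at 60.2 ± 12.8 CPM in Sca-1+ and 1607 ± 1388 CPM in Sca-1- (log2 fold change -4.74, SE 0.71, adjusted p = 4.7e-04), and the libraries with most Birc2, numbers 10 (3771 CPM) and 8 (2168 CPM), were again those with most Itga2b. The part of megakaryocyte RNA in the Birc2 value was not tested. Within libraries, 1.26 to 1.40 reads of Birc3 were counted per read of Birc2 in Sca-1+, and 0.00536 to 0.0549 in Sca-1-. The mean log2 ratio was 0.41 ± 0.08 against -5.95 ± 1.43, a difference of 6.36 (exact permutation test, p = 0.0079, adjusted 0.016), the widest of the 5 ratios.

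**Figure D3:**
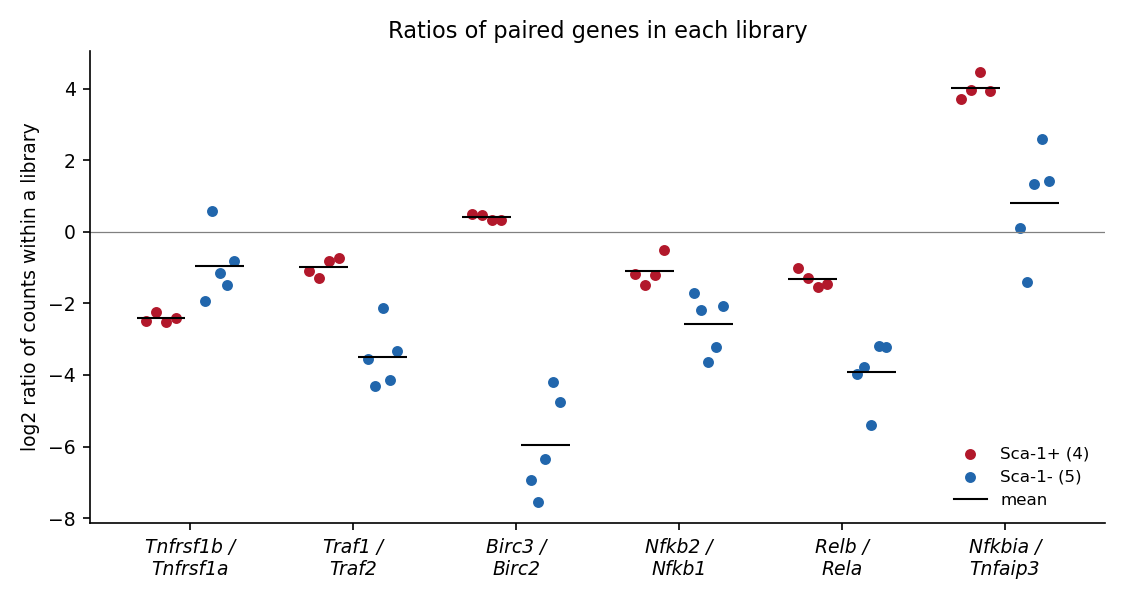
Log2 ratio of the counts of paired genes within each of 4 Sca-1+ (red) and 5 Sca-1- (blue) libraries, with lines at the means. The fractions do not overlap for any pair, and Birc3/Birc2 is close to 0.41 in all Sca-1+ libraries and averages -5.95 in Sca-1-. The last pair was added after its values were seen.

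Nfkbia and Tnfaip3 are the brakes that NF-kB induces against itself. Nfkbia (12:55489410-55492647, minus strand) had 48335, 56005, 57043 and 66820 counts in Sca-1+ libraries 7, 13, 15 and 19, and 2010, 1007, 3776, 5140 and 4662 in Sca-1- libraries 8, 10, 14, 16 and 22. Its level was 2028 ± 398 CPM in Sca-1+ and 142 ± 47.5 CPM in Sca-1-, so that the lowest Sca-1+ library (1647 CPM) lay far above the highest Sca-1- library (190 CPM). The log2 fold change was 3.83 (SE 0.34, adjusted p = 3.5e-05), and -0.36 (adjusted p = 0.283) under the endothelial scaling.

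Tnfaip3 (10:19000910-19015657, minus strand) had 3679, 3570, 2577 and 4343 counts in Sca-1+ and 1856, 2656, 1496, 846 and 1742 counts in Sca-1- libraries, in the same order. On the TMM scale the Sca-1- libraries ranged from 28.1 CPM in library 16 to 185 CPM in library 10, above every Sca-1+ library (89.0 to 168 CPM). The log2 fold change was 0.46 (SE 0.45, adjusted p = 0.44). With scaling by library size only, Tnfaip3 passed the test at 1.05 (adjusted p = 0.026), and the next values are again on the TMM scale. On this scale, libraries 10 and 8 were the highest of the Sca-1- fraction for Tnfaip3, as for Birc2 and Itga2b. Their TMM factors were 0.5805 and 0.6713, against 0.9884 to 1.162 in the other Sca-1- libraries. A lower factor raises the CPM of every gene in a library, so the order for Tnfaip3 depends on the scaling. The part of megakaryocyte RNA was not tested here either.

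Reads of Nfkbia per read of Tnfaip3 were 13.1 to 22.1 in Sca-1+ and 0.379 to 6.07 in Sca-1- libraries. This ratio was chosen after its values were seen, and its difference in log2 was 3.21.

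The subunits of the non-canonical branch were both higher in Sca-1+, while the endothelial scaling placed them lower, at -0.95 for Relb and -1.67 for Nfkb2. Relb (7:19606217-19629438, minus strand) had 1988, 1662, 1085 and 1886 counts in Sca-1+ libraries 7, 13, 15 and 19, and 72, 73, 51, 277 and 210 counts in Sca-1- libraries 8, 10, 14, 16 and 22. Its level was 58.7 ± 15.7 CPM against 5.87 ± 2.96 CPM, a log2 fold change of 3.32 (SE 0.42, adjusted p = 1.9e-04). The fractions did not overlap.

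Nfkb2 (19:46304320-46312385, plus strand) had 1676, 1454, 1566 and 1622 counts in Sca-1+ and 134, 102, 113, 320 and 378 counts in Sca-1- libraries, in the same order. It was at 55.9 ± 5.57 CPM in Sca-1+ and 9.20 ± 4.04 CPM in Sca-1- (log2 fold change 2.60, SE 0.32, adjusted p = 1.6e-04), again with no overlap. This value is uncertain, because exons of Nfkb2 share 531 bases with AC114539.1 and 299 bases with Psd on the other strand, and whether the counting used strand is not given in the sources used here.

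Their canonical partners differed less. Nfkb1, which encodes p105 and p50, was at 120 ± 21.5 CPM in Sca-1+ and 56.5 ± 28.9 CPM in Sca-1- (log2 fold change 1.09, SE 0.36, adjusted p = 0.033), with overlap, and Rela was at 145 ± 37.9 against 78.7 ± 9.65 CPM (0.89, SE 0.21, adjusted p = 0.0064). Under the endothelial scaling these were -3.12 and -3.44. The Nfkb1 call was lost in 6 of 9 fits that left out 1 library (0.83 to 1.38), those without Sca-1+ library 7, 13 or 15 or Sca-1- library 8, 10 or 14.

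Reads of Relb per read of Rela were 0.344 to 0.496 in Sca-1+ and 0.0238 to 0.11 in Sca-1- libraries, a difference in mean log2 ratio of 2.59 (exact permutation test, p = 0.0079, adjusted 0.016). Reads of Nfkb2 per read of Nfkb1 were 0.358 to 0.704 in Sca-1+ and 0.0797 to 0.308 in Sca-1- libraries, a difference of 1.48 (exact permutation test, p = 0.016, adjusted 0.016). The latter had an adjusted p of 0.054 when any 1 Sca-1+ library was left out, with a difference of 1.28 to 1.61.

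Levels of different genes were compared only per length of their exons, as CPM per kilobase (kb), with no test. In Sca-1+ libraries the order was Nfkbia (1259 CPM per kb), Tnfrsf1a (98.2), Tnfaip3 (17.4), Birc3 (15.9), Relb (15.1), Tnfrsf1b (12.6), Nfkb2 (12.2), Traf2 (10.03), Tnf (5.04) and Traf1 (2.95). The ranges over libraries were separate only between Nfkbia and Tnfrsf1a and between Tnfrsf1a and Tnfaip3, and the other neighbours did not differ beyond their spread. In Sca-1- libraries the order began with Nfkbia (88.4 CPM per kb), Tnfaip3 (12.7), Traf2 (6.29) and Tnfrsf1a (5.90) and ended with Tnf (1.08) and Traf1 (0.356), and only Nfkbia stood clear of its neighbour. Tnfrsf1a thus held the second place in Sca-1+ and the fourth in Sca-1-. With the length of the longest transcript in place of all exons, 4 of 10 genes kept their place in Sca-1+ and 8 of 10 in Sca-1-.

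Of the 25 other genes of the receptor complex and its kinases, 3 were higher in Sca-1+, 10 were lower and 12 did not pass the test, with a median log2 fold change of -0.80, while under the endothelial scaling all 25 were lower and passed. The endothelial scaling called 14076 of all 15937 genes lower. With library size only, 4 of the 25 were higher and 5 lower, beside 4158 higher and 2431 lower of all 15937 genes. The 3 higher genes were Map3k14 (NIK, 2.34, SE 0.65), Casp8 (the caspase that starts death receptor signalling, 2.07, SE 0.25) and Mapk8 (the stress kinase JNK1, 1.79, SE 0.32), and the endothelial scaling turned them to -1.71, -2.19 and -2.61. NIK is the kinase upstream of the RelB and p52 pair described above. The largest decreases after Birc2 were Otulin, a deubiquitinase of linear chains, at -3.69 (SE 0.54), and Mapk14, the p38 kinase, at -3.12 (SE 0.39). Otulin was at 40.7 ± 5.93 CPM in Sca-1+ and 524 ± 381 CPM in Sca-1-, with 1139 CPM in Sca-1- library 10.

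Of 11 further NF-kB subunits, inhibitors and cofactors, 10 were higher in Sca-1+ and 1 was lower, with a median of 1.09, while under the endothelial scaling 8 were lower, 0 were higher and Nfkbiz alone lay above 0 (0.17, adjusted p = 0.653). Nfkbiz, an inducible nuclear IkB protein, was at 381 ± 124 against 18.3 ± 9.26 CPM (log2 fold change 4.38, SE 0.43, adjusted p = 5.0e-05). Bcl3, another nuclear IkB protein, rose by 3.76 (SE 0.40), and the c-Rel gene Rel rose by 3.36 (SE 0.92), and these turned to -0.41 and -0.81 under the endothelial scaling. The gene that was lower, Tnip3, was named after its values were seen. It had 0 counts in every Sca-1+ library and 0.212 to 1.20 CPM in the Sca-1- libraries.

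Among 20 genes that TNF is known to induce in ECs, 19 were tested, 13 were higher, 0 were lower and 6 did not pass, with a median log2 fold change of 3.52, while under the endothelial scaling 3 were higher and 8 lower. The chemokine gene Cxcl10 rose by 6.57 (SE 0.74), from 1.17 ± 0.853 to 110 ± 59.3 CPM, the neutrophil chemokine gene Cxcl1 by 5.36 (SE 0.59) and the adhesion molecule gene Icam1 by 5.13 (SE 0.50). These were the 3 that passed as higher in Sca-1+ under the endothelial scaling, at 2.25, 1.20 and 1.01 (adjusted p = 0.015, 0.033 and 0.014). Among all 15937 genes, that scaling called 226 higher and 14076 lower. The markers it equalizes include Pecam1 and Esam, which did not pass the test with TMM (log2 fold changes 0.74 and 0.22). Whether the calls of Cxcl10, Cxcl1 and Icam1 hold under a scaling that leaves out Pecam1 and Esam was not tested. Icam1 had 1029 to 1544 CPM in the Sca-1+ libraries and 11.2 to 51.2 CPM in the Sca-1- libraries.

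The immediate-early genes, which include genes known to rise during the dissociation of tissue, moved with these lists. Of 12 such genes 11 were higher in Sca-1+ (median 2.71), and their summed level was 21070 to 36070 CPM in Sca-1+ and 3476 to 6575 CPM in Sca-1-. The part of this response in the values of Nfkbia and the other induced genes was not tested.

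**Figure D4:**
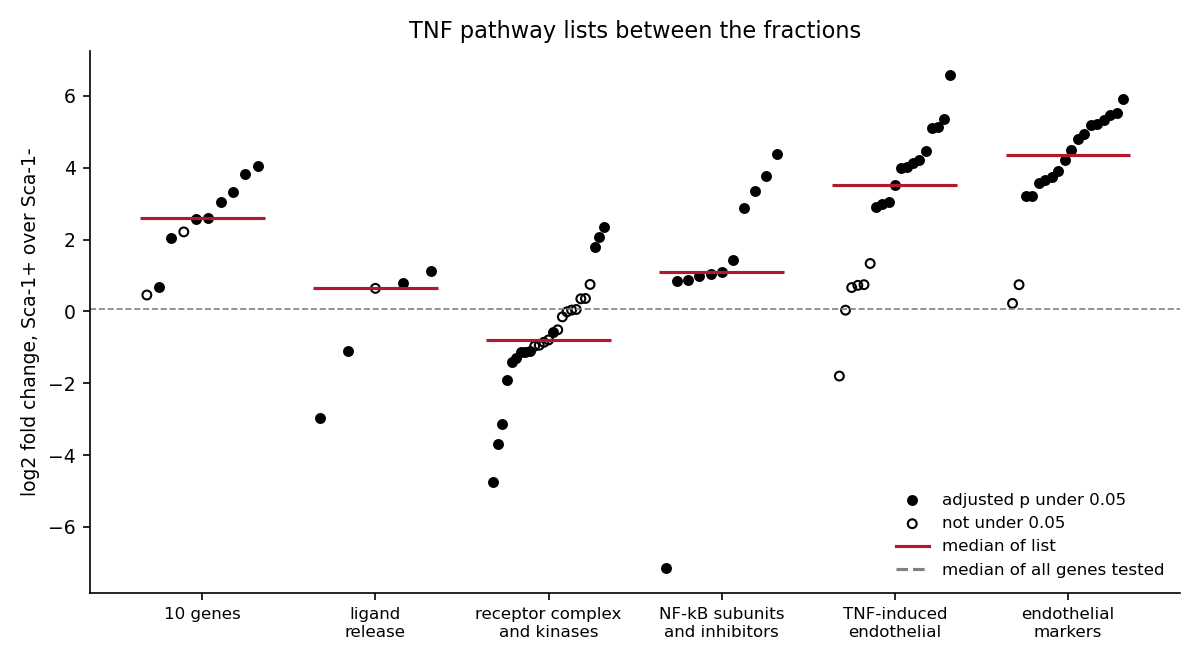
Log2 fold change of Sca-1+ over Sca-1- (TMM scaling) for each tested gene of 6 lists, filled where the adjusted p was under 0.05, with red lines at list medians and a dashed line at the median of all genes tested (0.07). The receptor complex and kinases have a median of -0.80, the 10 genes 2.59 and the TNF-induced endothelial genes 3.52. The lowest point is Tnip3, whose fitted fold depends on the prior count because it had 0 counts in every Sca-1+ library.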

How the data were processed

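RNA from sorted ECs had been made into libraries with a low-input full-length cDNA kit (SMART-Seq v4), which adds no molecular identifiers. What the authors deposited is 1 table with the raw count of reads on each gene in the 9 libraries. The submitters' processing notes name STAR, featureCounts and mm10, without versions. The annotation release and the use of strand are not given in the sources used here. All sample columns were used, and every row had a gene name.

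Counts were tested in R 4.3.3 with edgeR 4.0.16 on all 9 libraries (filterByExpr at 10 counts and 15 in total, TMM, quasi-likelihood F-test without robust weighting, two-sided, no covariates), with Benjamini-Hochberg adjustment over 15937 genes and a threshold of 0.05. Standard errors came from the F statistic. Levels are TMM-scaled CPM, with 2 counts as prior on the log2 scale. Within-library ratios used counts plus 0.5. The biological coefficient of variation was 0.549. The median log2 fold change of all genes moved to 0.43 with library size only and to -4.25 with the endothelial scaling, which equalizes the mean log2 CPM of 18 endothelial markers. Pairs of libraries within a fraction differed by a chi-square per degree of freedom of 36.8 to 538, so none were copies. The edgeR and permutation steps were tested on simulated data.

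The 10 genes and all lists were chosen with earlier results of these data known. The lists were written from general knowledge (190 symbols, 189 matched, Mpig6b not matched). Named were the 10 genes, the ratio partners Birc2, Nfkb1 and Rela, from each of 4 pathway lists the 3 highest and the 3 lowest log2 fold changes with an adjusted p under 0.05 and a mean log2 CPM of 1 or more, and Ly6a, Pecam1, Cdh5, Ptprc and Itga2b as checks of the sort. Lta, S100a8, Mpo, Elane, Esam, Tnip3, Lyz2 and Il6 were named outside this rule, after their values were seen. Coordinates are from GENCODE M21 (GRCm38), which held 45143 of the 46078 identifiers. DESeq2 1.42.0 and limma 3.58.1 (voom) served as alternatives. Figures used matplotlib 3.10.9 (Python 3.11.15).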

Additional observations from a re-analysis of the deposited data

Results flagged for a closer look

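A library was looked for that lay far from the others of its fraction. The values were the log2 CPM of the 10 genes and the other named genes, and the 5 within-library log2 ratios. Of 66 groups of values examined, 3 held such a library, all in log2 CPM, and chance gives about 1 in 20 groups. Tnf in Sca-1- library 16 was at -3.63 (0 counts), against 0.57 to 2.10 in the other Sca-1- libraries. Adam17 in Sca-1+ library 13 was at 6.27, below the other Sca-1+ libraries at 6.74 to 6.83. Otulin in Sca-1+ library 15 was at 4.998, below the others at 5.43 to 5.48.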

How the results depend on the processing

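Across the scalings by DESeq2 size factors, upper quartile and library size only, and with DESeq2's Wald test, limma voom and a robust fit, 8 of the 10 genes were called higher and 0 lower. With no filter on low counts 7 were higher. Scaling to the endothelial markers called 14302 of all genes, 226 higher and 14076 lower. It called 0 of the 10 genes higher and 6 lower, and 3 genes of the pathway lists higher (28 with TMM) and 46 lower (13 with TMM). Under that scaling the log2 fold changes reversed to -2.05 for Tnf, -0.13 for Tnfrsf1a, -1.86 for Tnfrsf1b, -1.16 for Traf1, -3.66 for Traf2, -4.19 for Tnfaip3, -0.36 for Nfkbia, -2.31 for Birc3, -0.95 for Relb, -1.67 for Nfkb2, -3.24 for Timp3, -3.67 for Adam17, -1.71 for Map3k14, -2.19 for Casp8, -2.61 for Mapk8, -0.41 for Bcl3, -0.81 for Rel, -3.12 for Nfkb1 and -3.44 for Rela. This scaling moved the median of all genes to -4.25, from 0.07. With library size only, 7 pathway genes were called lower, and calls of lower among all 15937 genes also fell, to 2431 from 3416 with TMM. The cause was not tested. With exon lengths from the longest transcript, 4 of 10 genes kept their place in Sca-1+.

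Consecutive end numbers (7 and 8, 13 and 14, 15 and 16) were tried as a replicate block. The paired libraries deviated together by correlations of 0.147, 0.148 and 0.042. For the other pairs of a Sca-1+ and a Sca-1- library the correlations were -0.191 to 0.065. Libraries 15 and 16 carry the same mouse number, and whether the numbers pair the other libraries is not settled. The main fit used no block, so any pairing was left out of its p-values. With the block 4340 of all genes were called, and 5360 of the same 6 libraries without it (7137 with all 9). Of the 10 genes 7 were called higher with and without the block, and pathway genes called lower fell to 5 (10 without the block).

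Leaving out 1 library at a time gave 5957 to 6969 genes called, 7 to 8 of the 10 genes higher and 0 lower, and 24 to 29 pathway genes higher and 10 to 13 lower. Differences of log2 ratios ranged from -1.70 to -1.07 for Tnfrsf1b/Tnfrsf1a, 2.32 to 2.87 for Traf1/Traf2, 5.97 to 6.80 for Birc3/Birc2, 1.20 to 1.69 for Nfkb2/Nfkb1 and 2.22 to 2.77 for Relb/Rela. Leaving out Sca-1+ library 19 and Sca-1- library 10 together, a choice made after seeing the data, gave 6077 genes called, and Tnf was at 1.07 (adjusted p = 0.525). Levels under 3 counts could not be measured at this depth.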

Other observations

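Markers of further cell types also differed between the fractions. Of 10 smooth muscle and pericyte markers 7 were higher in Sca-1+ and 0 lower, with a summed level of 575 to 1582 CPM in Sca-1+ and 20.3 to 79.2 CPM in Sca-1- libraries. Of 10 erythroid markers 7 were lower in Sca-1+ (104 to 233 against 618 to 2401 CPM). Of 8 monocyte and macrophage markers tested, 1 was higher and 2 were lower. Their summed level was 174 to 267 CPM in Sca-1+ and 874 to 2472 CPM in Sca-1-, but Lyz2 made up most of the latter, and without it the sums were 124 to 234 CPM and 16 to 102 CPM. Of 9 neutrophil markers tested 1 was lower and 0 were higher. Of 6 B and plasma cell markers tested, 1 was higher and 3 were lower, and of 2 T and NK cell markers tested, 1 was higher and 1 was lower.

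The interleukin gene Il6, a TNF-induced gene named after its values were seen, was highest in library 19 of the Sca-1+ fraction, which had the most Tnf, and in library 16 of the Sca-1- fraction, which had 0 counts of Tnf. It was at 35.9, 34.1, 73.4 and 232 CPM in Sca-1+ libraries 7, 13, 15 and 19, and at 2.82, 7.12, 9.84, 38.6 and 4.11 CPM in Sca-1- libraries 8, 10, 14, 16 and 22, with overlap between the fractions (log2 fold change 2.90, SE 0.85, adjusted p = 0.019).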
